A study of Mus musculus with 316 samples.

Results

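Eng_ES-HSC cells are mouse blood cells that were derived from embryonic stem cells (ESC) and recovered after engraftment. They were chosen by their titles, which gave 49 of the 316 cells deposited. Cells 31 and 34 had near-identical profiles (Pearson r = 0.989), as did cells 33 and 36 (r = 0.973), so each pair was averaged and 47 cells were described. Each cell was its own sample, measured by single-cell RNA sequencing, and levels are TPM (a relative transcript abundance that allows for transcript length). The other cells served as background: 95 haematopoietic stem cells (HSC) taken after engraftment of bone marrow (Eng_BM-HSC), 94 fetal liver HSC (FL_HSC) and 77 ESC, 78 before a near-identical pair was joined. The series title names Notch activation and the lymphoid potential of HSC made from pluripotent cells. The sources used here do not give the ESC line, the derivation, the hosts, their age or the sort gate. No animal or culture is named in the labels, so every group was treated as 1 sample and no test was made between groups. The library identifier differed between the 4 groups, and library and group cannot be told apart.

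HSC sit in the bone marrow, renew themselves and give rise to all blood lineages. Neutrophils carry calprotectin, the dimer of S100a8 and S100a9, and fill primary granules (elastase, myeloperoxidase) before secondary granules (lactoferrin, lipocalin). T cells are known by the CD3 chains, which signal through the kinase Lck, and red cell precursors by globins. Cd52 is a small surface glycoprotein of leukocytes, and Cxcr4 is the receptor that holds HSC and immature neutrophils in the marrow.

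Few genes were found per cell, where found means a TPM of at least 1. Eng_ES-HSC cells had 201 to 3970 genes, with a median of 973, against medians of 2407 in Eng_BM-HSC, 4151 in FL_HSC and 5433 in ESC. Only 21 of 47 Eng_ES-HSC cells had at least 1000 genes. Mitochondrial transcripts took a median of 22.2% of TPM and at least 50% in 7 cells. The 10 highest genes of a cell took a median of 45.2% of its TPM and up to 95.5%. The median Pearson r between cells was 0.29 in Eng_ES-HSC, against 0.32 in Eng_BM-HSC, 0.52 in FL_HSC and 0.60 in ESC, over pairs that share 1 library. TPM keeps no sequencing depth, so the depth of each cell is unknown and a gene listed at 0 may have been missed.

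The labels call these cells HSC, and the markers were set against that name. The median Eng_ES-HSC cell had 4 of 10 listed leukocyte genes, against 6 in Eng_BM-HSC, 8 in FL_HSC and 2 in ESC. In cells with 500 to 1500 genes the medians were 4.5 in 24 Eng_ES-HSC cells and 4 in 28 Eng_BM-HSC cells. Members differed, and Cd52 was found in 24 of 47 Eng_ES-HSC against 15 of 95 Eng_BM-HSC cells. Arhgdib, a regulator of small GTPases in blood cells, was found in 35 of 47 Eng_ES-HSC, 90 of 95 Eng_BM-HSC and 11 of 77 ESC cells. Srgn, the proteoglycan of blood cell granules, was found in 25 of 47, 80 of 95 and 9 of 77, and Ptprc (CD45) in 13 of 47, 40 of 95 and 1 of 77. The pluripotency genes Pou5f1 and Sox2 were found in no cell, and Nanog, in 14 cells, was also found in 47 of 95 Eng_BM-HSC cells. HSC genes were scarce. Of a list of 30 HSC and progenitor genes, the median Eng_ES-HSC cell had 1, against 12 in Eng_BM-HSC, 20 in FL_HSC and 6 in ESC. At least 3 were found in 9 of 47 Eng_ES-HSC cells (19.1%, exact 95% interval 9.15% to 33.3%). The same held for 94 of 95 Eng_BM-HSC, 90 of 94 FL_HSC and 71 of 77 ESC cells. Of the 30 genes, 21 were found in at most 10% of ESC cells. With those 21, counts were 5 of 47, 85 of 95, 89 of 94 and 1 of 77, the ESC count low by choice. No Eng_ES-HSC cell had Meis1, Erg, Mecom or Hoxa9, transcription factors of HSC, or Procr and Fgd5, which mark them. A count of 0 of 47 cells allows a share of up to 6.38%. The data therefore go against the stem cell name for most of these cells, which are called Eng_ES-HSC here as a group name only. All intervals and limits cover counting error only.

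Gene number moved with the HSC count. Over the 47 cells, the number of HSC genes and the number of all genes correlated at a Pearson r of 0.77 and a Spearman correlation of 0.58, in cells of 1 library. Values were therefore also set side by side in cells with 500 to 1500 genes. There the median was 1 HSC gene in 24 Eng_ES-HSC cells and 7 in 28 Eng_BM-HSC cells, while the medians of 12 housekeeping genes were 6 and 6. The ranges, 0 to 4 in Eng_ES-HSC and 3 to 13 in Eng_BM-HSC, overlapped at 3 and 4.

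**Figure D1:**
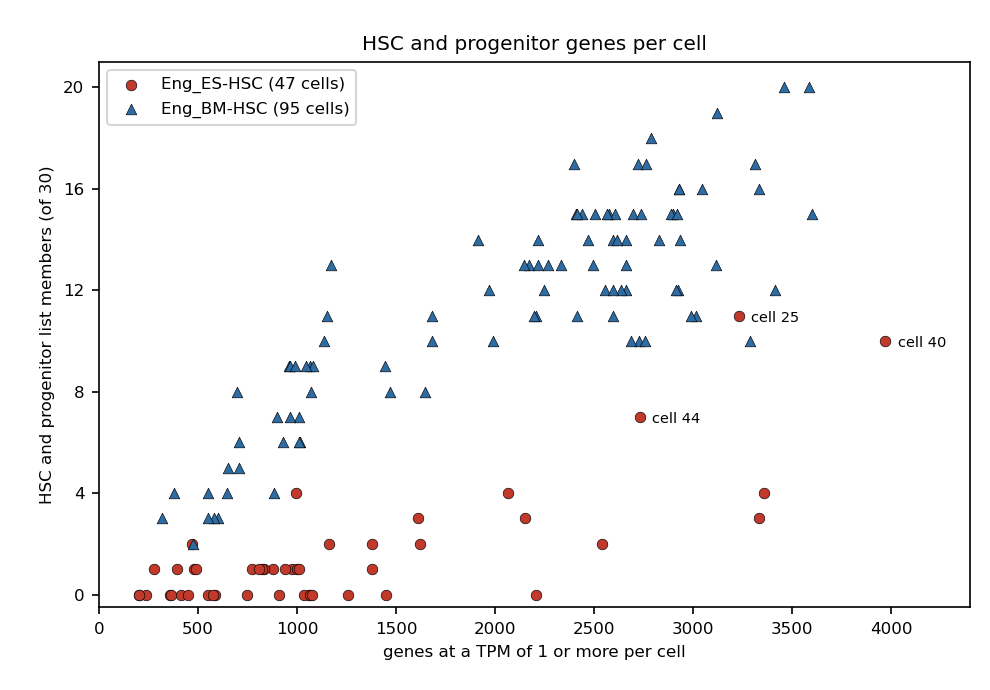
Members of the HSC and progenitor list found at 1 TPM or more (vertical axis) against all genes found at 1 TPM or more (horizontal axis), for 47 Eng_ES-HSC cells (circles) and 95 Eng_BM-HSC cells (triangles). Most Eng_ES-HSC cells lie below Eng_BM-HSC cells of like gene number, and cells 25, 40 and 44 have the most HSC genes among Eng_ES-HSC, with 11, 10 and 7.

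Calprotectin was the broadest lineage signal. The genes are neighbours on mouse chromosome 3 (GRCm38, GENCODE M21): S100a8 at 90668978 to 90670035 on the plus strand and S100a9 at 90692632 to 90695721 on the minus strand. The 250 bases before each start in RefSeq (GRCm38.p6) are shown because the 2 genes were mostly found together. The RefSeq start of S100a8 lies inside the GENCODE gene. Capitals mark matches, on either strand, to TTNNGNAA, a short form of the site of the C/EBP factors that act in granulocytes.
S100a8: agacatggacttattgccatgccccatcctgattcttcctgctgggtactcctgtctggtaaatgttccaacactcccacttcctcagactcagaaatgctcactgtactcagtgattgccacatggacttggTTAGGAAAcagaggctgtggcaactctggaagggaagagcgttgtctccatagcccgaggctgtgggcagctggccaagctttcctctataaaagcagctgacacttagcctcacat
S100a9: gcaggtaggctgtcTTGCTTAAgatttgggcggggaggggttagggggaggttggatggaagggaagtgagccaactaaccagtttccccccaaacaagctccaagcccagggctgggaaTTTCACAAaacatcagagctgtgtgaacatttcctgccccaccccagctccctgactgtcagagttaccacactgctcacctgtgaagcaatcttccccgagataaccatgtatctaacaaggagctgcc
S100a8 had 1 match, at -117 to -110 from the start, in the window chr3:90668821-90669070. S100a9 had 2, at -236 to -229 and at -130 to -123, in the window chr3:90695722-90695971. The S100a8 window also held TTCCTC, the reverse complement of the PU.1 core GAGGAA, at -170 to -165 and at -36 to -31, with no overlap with the C/EBP match. The C/EBP letters occur in 36.8% of 32851 promoter windows of 250 bases and in 17 of 25 windows of the granulocyte genes listed here. The PU.1 letters occur in 23.3% of all windows and in 16 of those 25. A match is a description of letters, not of binding.

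S100a8 was found in 36 of 47 Eng_ES-HSC cells (76.6%, 61.97% to 87.7%), 2 of 95 Eng_BM-HSC cells and no FL_HSC or ESC cell. Its TPM ran from 0 to 238144 in Eng_ES-HSC, with a median of 1019, and reached 797 in Eng_BM-HSC. The groups overlapped, since 10 Eng_ES-HSC cells were listed at 0. The levels of S100a8 fell in separate ranges: 29 cells had 258 TPM or more, 7 had 4.04 to 15.2 TPM and 11 had under 1 TPM. S100a9 was found in 35 cells (74.5%, 59.7% to 86.1%), at 0 to 256334 TPM with a median of 61.6, against 3 of 95 Eng_BM-HSC cells and at most 90.1 TPM there. Its levels showed no such gap, with 13 cells between 2.82 and 87.4 TPM and 22 at 140 or more.

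Together the calprotectin genes took a median of 0.209% of TPM per cell, but far more in a few. They made up 55.1% in cell 22, 42.9% in cell 15, 24.7% in cell 10, 18.1% in cell 33 and 14.8% in cell 41. In 20 cells both genes were at 100 TPM or more, S100a8 alone was in 9 and S100a9 alone in 2. The ratio of S100a8 to S100a9 in those 20 cells had a median of 0.72 and ran from 0.017 to 20.9, with S100a8 the higher in 7.

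Granule genes differed among these cells. Cells 15, 22, 33 and 41, all among the 5 richest in calprotectin, had the secondary granule genes Ltf (lactoferrin), Camp (cathelicidin), Ngp and Chil3 at 100 TPM or more. In cell 22, Ltf stood at 7864 TPM and Camp at 20086, and in cell 15 Camp stood at 49453 and Ngp at 48063. Cell 10, with 412 genes, had Lcn2 at 940 TPM and none of the other 4. Primary granule genes were high in some of the same and in other cells: Elane and Camp were together at 100 TPM or more in 3 of the 8 cells with Elane, and Mpo and Ngp in 1 of the 8 with Mpo, but at 1 TPM in 8 of 13 and in 10 of 13. Cell 29 alone had all 5 at 100 TPM or more: Elane 9338 TPM, Mpo 14566, Prtn3 3699, Ctsg 5573 and Ms4a3 3010. Cells 27 and 23 had Ctsg at 31259 and 21099 TPM. Elane and Mpo, which encode elastase and myeloperoxidase, were found together at 100 TPM or more in 7 cells, Elane alone in 1 and Mpo alone in 1. In all 8 cells with Elane at that level, S100a8 was at that level too. Genes of late, mature neutrophils were rare at that level: the most a cell had was 1 of the 10, and Mmp9 was found in no cell. Mpo by itself was not particular to this group, with 13 of 47 Eng_ES-HSC, 14 of 95 Eng_BM-HSC and 48 of 94 FL_HSC cells. At least 3 of the 5 primary granule genes were found in 9 of 47 Eng_ES-HSC, 0 of 95 Eng_BM-HSC, 2 of 94 FL_HSC and 0 of 77 ESC cells.

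Counting by lists, at least 3 of 27 granulocyte genes were found in 35 of 47 Eng_ES-HSC cells (74.5%, 59.7% to 86.1%), against 36 of 95 Eng_BM-HSC, 33 of 94 FL_HSC and 7 of 77 ESC cells. Genes of neutrophil receptors carried much of that background, since Cxcr2 was found in 77 and Csf3r in 36 of 77 ESC cells. Counts were also made with the 24 members found in at most 10% of ESC cells, a choice that itself keeps the ESC count low. They were 33 of 47 Eng_ES-HSC, 2 of 95 Eng_BM-HSC, 4 of 94 FL_HSC and 0 of 77 ESC cells. For the same reason lineage is given below at 100 TPM as well, a level chosen after low values of lineage genes had been seen in ESC.

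**Figure D2:**
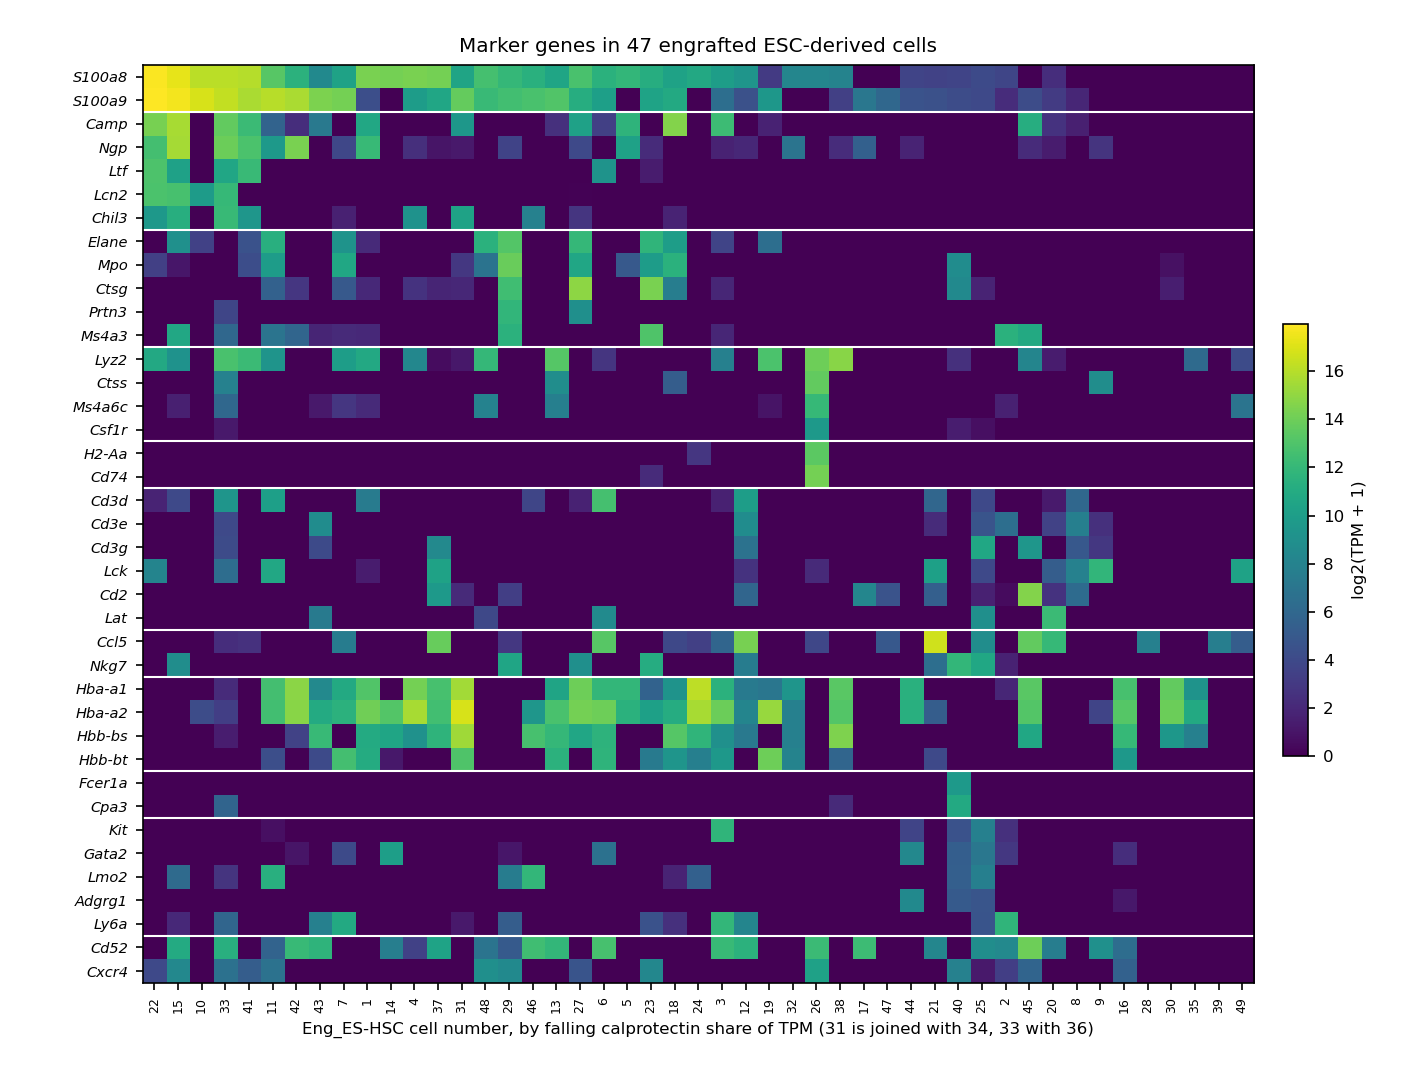
Level of marker genes (rows, log2(TPM + 1)) in each of 47 Eng_ES-HSC cells (columns), ordered by the share of TPM that S100a8 and S100a9 take. White lines part the gene groups: calprotectin, secondary granule, primary granule, monocyte, class II, T cell, cytotoxic, globin, basophil, HSC, and last Cd52 and Cxcr4. The cells at the left, richest in calprotectin, include the 4 with Ltf, Camp, Ngp and Chil3 at 100 TPM or more, class II genes stand out in cell 26 and basophil genes in cell 40.

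Adult globins were the other broad signal. Hba-a2 (alpha globin) was found in 31 of 47 cells and at 100 TPM or more in 27, with a median of 1199 TPM and a highest value of 121372. At least 1 of the 4 adult globin genes was found in 32 of 47 Eng_ES-HSC cells, 12 of 95 Eng_BM-HSC, 85 of 94 FL_HSC and 3 of 77 ESC cells. Globins took 25.1% of TPM in cell 31, 14.99% in cell 24 and at least 1% in 19 cells. Hba-a1 and Hba-a2, like Hbb-bs and Hbb-bt, are near-identical copies, so the split of reads within each pair is uncertain. Of 10 other genes of the red cell lineage, at least 1 was found in 18 of 47 Eng_ES-HSC cells. The same held for 1 of 95 Eng_BM-HSC, 48 of 94 FL_HSC and 25 of 77 ESC cells. At least 2 were found in 2 Eng_ES-HSC and 26 FL_HSC cells. Car1, which encodes a carbonic anhydrase, was found in 12 of 47 Eng_ES-HSC cells, at up to 19142 TPM. Slc4a1 (an anion exchanger) and Alas2 (haem synthesis) were found in no cell, and the factor Klf1 in 1. Leaving out globins and Car1, 8 of 47 Eng_ES-HSC cells had any of 9 erythroid genes. The counts were 1 of 95 in Eng_BM-HSC, 48 of 94 in FL_HSC and 19 of 77 in ESC. Cell 44 is the cell with most of them, with Gata1 at 30.7 TPM beside Hba-a1 at 2730 TPM. Hbb-y, an embryonic beta globin, reached 2.40 TPM in 1 cell, and Hbb-bh1 and Hba-x were found in none.

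Calprotectin and globin shared many cells but not the extremes. At 100 TPM or more, 22 cells had both a calprotectin and a globin gene, 9 calprotectin only, 5 globin only and 11 neither. S100a8 and Hba-a2 were together at that level in 21 cells. The 5 cells in which calprotectin was at least 10% of TPM all had globins under 0.01% of TPM, at most 0.0022%, while 15 of the other 42 were under 0.01%. Globin also went with gene number: Hba-a2 was found in 21 of 26 cells under 1000 genes and in 10 of 21 with more. Among the 9 cells with at least 2000 genes, 7 had globins under 0.01% of TPM, against 13 of the other 38. The part of gene number in the globin signal was not tested.

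**Figure D3:**
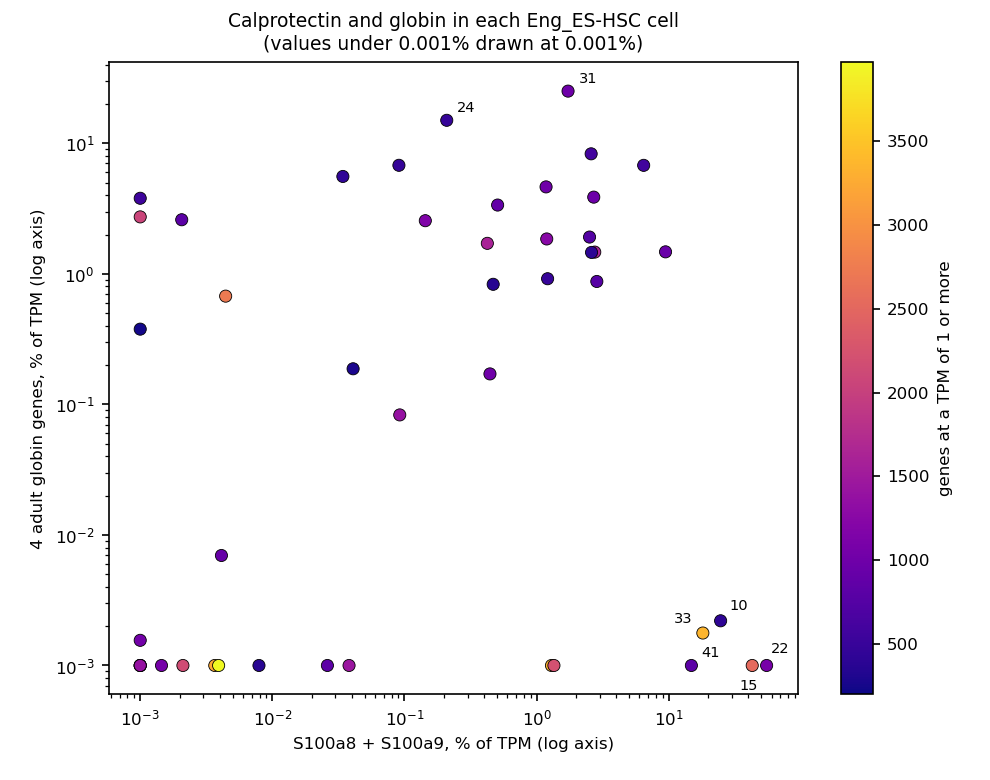
Share of TPM taken by the 4 adult globin genes (vertical, log axis) against the share taken by S100a8 and S100a9 (horizontal, log axis) in each of 47 Eng_ES-HSC cells, coloured by genes found. The 5 cells above 10% calprotectin lie along the bottom, at 0.0022% globin or less, and the cells above 10% globin (31 and 24) have 1.73% and 0.209% calprotectin.

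T cell genes appeared in a smaller set. Lck was found in 13 of 47 Eng_ES-HSC cells (27.7%, 15.6% to 42.6%), 4 of 95 Eng_BM-HSC, 7 of 94 FL_HSC and 19 of 77 ESC cells, so its presence at 1 TPM is near the ESC background. At 100 TPM or more it was in 7 Eng_ES-HSC cells, against 1 Eng_BM-HSC, 1 FL_HSC and 2 ESC cells, with up to 3578 TPM in cell 9. Cd3e, a CD3 chain, was found in 9 Eng_ES-HSC cells, no Eng_BM-HSC or FL_HSC cell and 1 ESC cell. Lck and Cd3e were found together in 7 cells, Lck alone in 6 and Cd3e alone in 2. The antigen receptor kinase Zap70 was found in no cell, Cd4 in 2 and Cd8a in 2.

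At least 3 of 19 T cell genes were found in 14 Eng_ES-HSC cells (29.8%, 17.3% to 44.9%), 16 Eng_BM-HSC, 13 FL_HSC and 39 ESC cells. With the 11 members rare in ESC the counts were 7 of 47, 0 of 95, 2 of 94 and 0 of 77. The ESC count is again kept low by the choice of members. Cell 25 had 14 members, but 6 of them were among the 11 rare in ESC and 2 reached 100 TPM. Its members were led by Cd3g at 1640 TPM and the adaptor Lat at 500. Cell 20 had 11, with Lat at 4782, Cd247 (the CD3 zeta chain) at 2277 and the co-receptor Cd28 at 1518, and cells 8 and 12 had 8 each. Cell 8 had Lck at 234 TPM, Cd3e at 210 and Gata3, a T cell factor, at 642. Mitochondrial transcripts made up 77.3% of TPM in cell 8 and 76.1% in cell 20, and their part in these values was not tested. Cells 8 and 20 were also the only Eng_ES-HSC cells with the eGFP reporter sequence, at 2754 and 472 TPM.

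Of the cytotoxic genes, Ccl5, a chemokine of activated T and NK cells, was found in 19 of 47 Eng_ES-HSC cells, with 101790 TPM in cell 21, against 4 of 95 Eng_BM-HSC and 1 of 77 ESC cells. Nkg7, a gene of cytotoxic granules, went the other way, with 9 of 47 Eng_ES-HSC cells against 51 of 95 in Eng_BM-HSC. Cell 12 had 5 members of the cytotoxic list, among them Klrk1 at 166 TPM, Nkg7 at 187 and Ccl5 at 19624. Ncr1, Prf1 and Gzma, which mark NK cells and killing granules, were found in no cell.

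Calls of more than 1 lineage in a cell depended on the level asked for. At least 3 granulocyte and 3 T cell genes were found together in 11 cells at 1 TPM and in 2, cells 37 and 43, at 100 TPM. In cell 37, S100a8 stood at 19213 TPM beside Lck at 1316, Cd2 at 829, Cd4 at 549 and Hba-a1 at 6717 TPM. Beside S100a8 and S100a9, its granulocyte gene was Anxa1, at 5772 TPM, which many cell types express. In cell 22, the cell richest in calprotectin, Lck stood at 272 TPM with Cd3d at 2.46. S100a8 and Lck at 100 TPM or more met in 3 cells, S100a8 alone was in 26 and Lck alone in 4. Whether any cell was a doublet was not tested.

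At 100 TPM, 9 cells had at least 3 members of the granulocyte list only, 9 of the erythroid list only and 8 of both. Another 9 passed no list: cells 2, 9, 14, 17, 21, 28, 39, 47 and 49. Over 11 lineage lists, which leave out the class II and general leukocyte genes, 23 cells passed 1 list, 12 passed 2 and 3 passed 3. Of those 15 cells with more than 1 list, 13 passed the erythroid list, which the globin genes carry, and without that list 5 cells passed more than 1. A count over a list is a range, not a cell type.

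**Figure D4:**
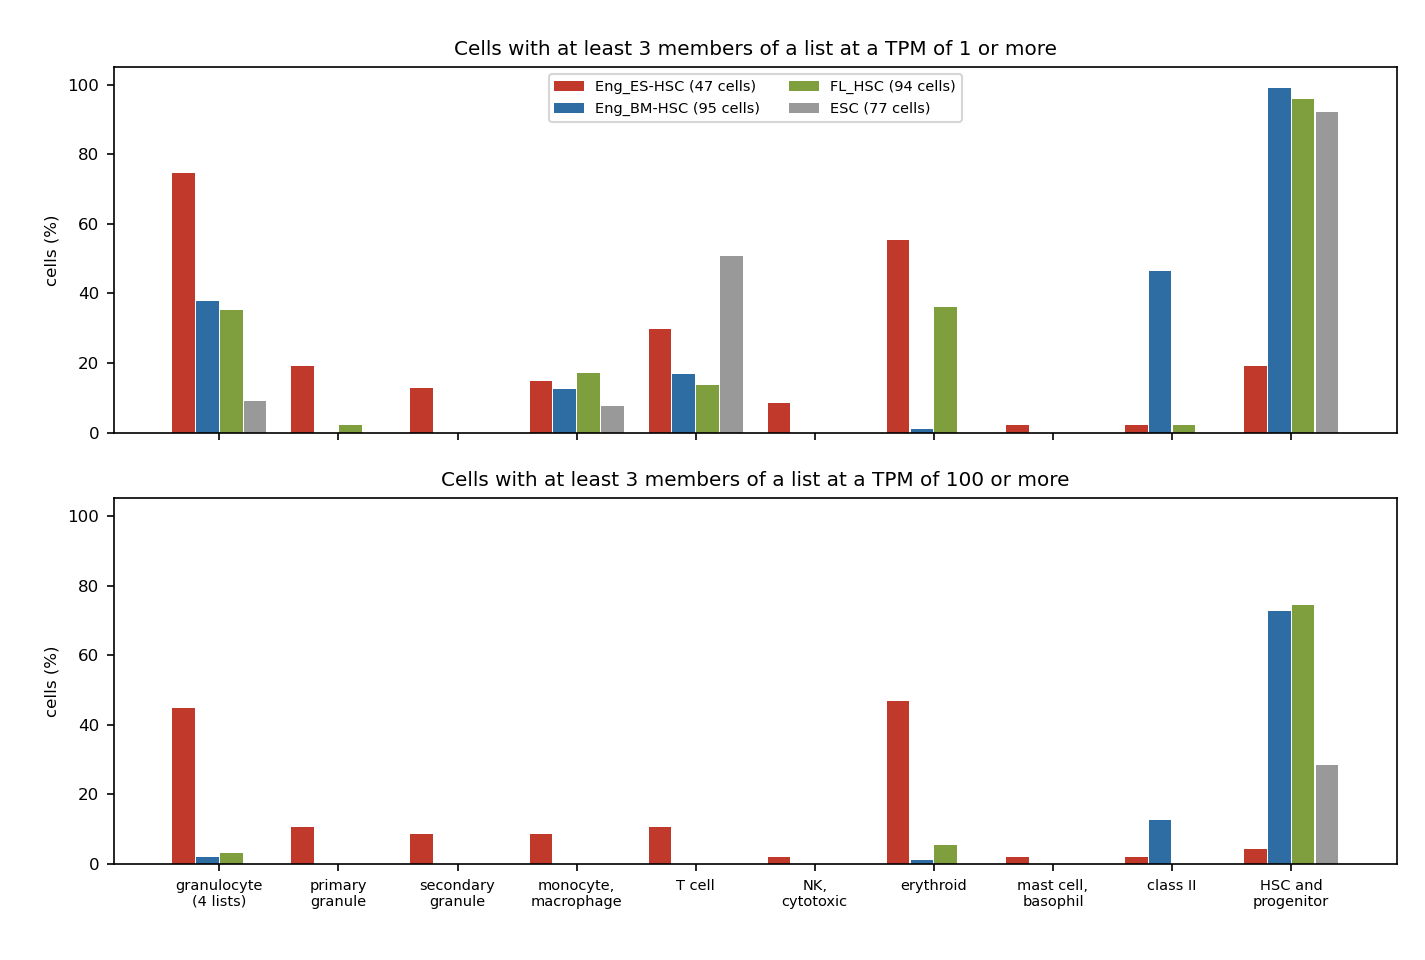
Percent of cells with at least 3 members of a list, at 1 TPM (top) and 100 TPM (bottom), for Eng_ES-HSC (47 cells), Eng_BM-HSC (95), FL_HSC (94) and ESC (77). At 100 TPM granulocyte and erythroid genes are commonest in Eng_ES-HSC and HSC genes in the 3 other groups. At 1 TPM the T cell list is commonest in ESC.

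Other lineages showed in fewer cells. At least 3 of 14 monocyte and macrophage genes were found in 7 of 47 Eng_ES-HSC cells. The same held for 12 of 95 Eng_BM-HSC, 16 of 94 FL_HSC and 6 of 77 ESC cells. At 100 TPM, 4 Eng_ES-HSC cells (13, 26, 33 and 48) and no cell of the other groups passed that list. Lyz2 was found in 21 of 47 Eng_ES-HSC cells, and at 100 TPM or more in 15. Cell 26 had monocyte and class II genes: Lyz2 (lysozyme) at 16573 TPM, Csf1r (the M-CSF receptor) at 790, Ctss (cathepsin S) at 12896, H2-Ab1 at 27040 and Cd74 (invariant chain) at 18593. At least 3 class II genes were found in that 1 Eng_ES-HSC cell and in 44 of 95 Eng_BM-HSC cells. Cell 40 had basophil and mast cell genes, with the IgE receptor chains Fcer1a at 847 TPM and Ms4a2 at 513, the protease Cpa3 at 1956 and Mcpt8, a basophil protease, at 111. It also had 10 HSC and progenitor genes, among them Gata2 at 40.6 TPM and Kit at 21.5, and the most genes of any cell, 3970. Cell 25 had 11, among them Kit (the stem cell factor receptor) at 224 TPM, Gata2 at 140 and Lmo2 at 216, beside its 14 T cell genes and 13 of 15 G2 and M phase genes. Cell 44 had 7, with Gata2 at 340, Adgrg1 at 362 and Lyl1 at 534 TPM.

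Platelet genes were nearly missing, and B cell genes were few. Of 12 B cell genes, 4 were found in at least 1 Eng_ES-HSC cell, beside 47.2% of all genes. At least 3 were found in 2 of 47 Eng_ES-HSC, 5 of 95 Eng_BM-HSC, 9 of 94 FL_HSC and 15 of 77 ESC cells. Cd22 was found in 10 of 47 Eng_ES-HSC cells, at up to 15.4 TPM, and Blnk and Fcrla in 1 each. Pax5 and Cd79a were found in no cell. Ebf1, a B cell factor, was found in all 47 cells and in 71 of 77 ESC, 66 of 95 Eng_BM-HSC and 54 of 94 FL_HSC cells. Its mean log2(TPM + 1) was 4.996 in Eng_ES-HSC, against 2.06 in Eng_BM-HSC, 2.11 in FL_HSC and 2.33 in ESC, which puts Ebf1 among the 10 genes furthest above every other group. Of all 21970 genes, 47.2% were found in at least 1 Eng_ES-HSC cell. Of 10 megakaryocyte genes, Gp1bb alone was found, in 1 cell at 51.2 TPM. Of 20 Notch pathway genes 11 were found, a share near that of all genes. The receptor Notch2 was found in 18 of 47 Eng_ES-HSC, 66 of 95 Eng_BM-HSC, 64 of 94 FL_HSC and 14 of 77 ESC cells. The targets Hes1 and Hey1 were found in 2 Eng_ES-HSC cells and 1, and Dtx1 and Nrarp in none. Hey1 and Nrarp were scarce in the other groups too. Hey1 was found in 0 of 95 Eng_BM-HSC, 4 of 94 FL_HSC and 3 of 77 ESC cells, and Nrarp in 0, 2 and 7.

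Cd52 was found in 24 of 47 Eng_ES-HSC cells (51.1%, 36.1% to 65.9%), 15 of 95 Eng_BM-HSC, 9 of 94 FL_HSC and 2 of 77 ESC cells, and ran from 0 to 16674 TPM with a median of 10.4. It crossed lineages: its highest value was in cell 45, which had Cd2 at 24936 TPM and Camp at 2382, and it stood at 4909 in cell 26 and 2056 in cell 15. Cxcr4 was found in 15 of 47 Eng_ES-HSC cells (31.9%, 19.1% to 47.1%), 15 of 95 Eng_BM-HSC, 18 of 94 FL_HSC and 5 of 77 ESC cells. At 100 TPM or more it was in 8 Eng_ES-HSC cells and in 1 cell of each other group. Cell 26 had the highest value, 1238 TPM, followed by cells 48 and 29 with 502 and 371 TPM. Gene number moved with both Cxcr4 and Lck. Cxcr4 was found in 52.4% of the 21 cells with at least 1000 genes and 15.4% of the 26 others, and Lck in 42.9% and 15.4%. The part of gene number in these shares was not tested.

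Cxcr4 at 100 TPM or more was accompanied by S100a8 at that level in 7 of 8 cells, and by Lck in 1. Cd52 was accompanied by S100a8 in 13 of 20 and by Lck in 3. Over all 47 Eng_ES-HSC cells, S100a8 was at that level in 61.7% and Lck in 14.9%. Both Cd52 counts, and that of Lck with Cxcr4, lie near those shares. No cell had all 5 markers at 100 TPM, 5 had 4 and 7 had none. At 1 TPM, 3 cells had all 5 and 4 had none. Among 589 genes at 100 TPM or more in at least 5 cells, those most like S100a9 by Jaccard index (cells with both over cells with either) were S100a8 at 0.65 and Actb at 0.52. For S100a8 they were Actb at 0.690 and Ptma at 0.649, ahead of S100a9 at 0.645, Bhlhe41 at 0.617 and Hba-a2 at 0.60. For Cxcr4 they were Rnasek at 0.64 and Clec4a2 at 0.625, and for Lck no gene passed 0.30. These 100 TPM neighbours were ranked after the data had been seen. At 1 TPM the nearest genes were mostly ones found in nearly all ESC cells, such as Ptma at 0.80 for S100a8 and Lars2 at 0.85 for S100a9. For Lck they were Plekha2 at 0.52 and then Cd3d, Rbm28 and Kdelc2, tied at 0.50, all of them found in over 60% of ESC cells.

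**Figure D5:**
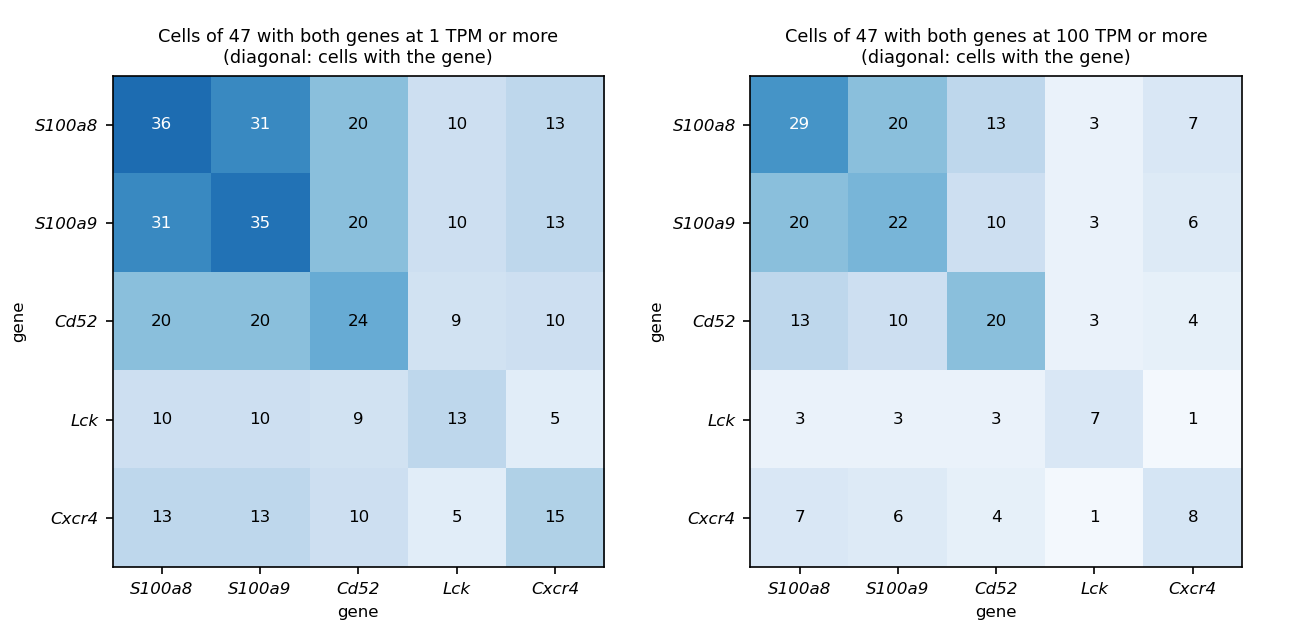
Number of the 47 Eng_ES-HSC cells with both genes of a pair at 1 TPM or more (left) and at 100 TPM or more (right), with the number for each gene alone on the diagonal. S100a8 and S100a9 share 31 and 20 cells, and Lck and Cxcr4 share 5 and 1.

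Against the other groups, 48 of 13155 genes (0.365%) had a mean log2(TPM + 1) at least 1 higher in Eng_ES-HSC than in each of Eng_BM-HSC, FL_HSC and ESC, and 991 (7.53%) were at least 1 lower than in each. Of the 23 granulocyte genes tested, 10 were among the higher ones, S100a8 and S100a9 included. Some of the 23, such as Ltf and Lcn2, were at 0 in every other group and were tested only because of Eng_ES-HSC. The lists were also chosen with earlier results of these data known. This count and the median that follows therefore only describe the list. The median over those 23 of the smallest of the 3 differences was 0.23, against -1.19 over all genes tested. S100a8 had a mean log2(TPM + 1) of 8.04 in Eng_ES-HSC and 0.19 in Eng_BM-HSC. Cd52 had 4.97 and 1.02, Cxcr4 2.04 and 0.50, and Lck 1.94 and 0.29. Of 29 HSC genes tested, 0 were higher and 4 lower than in every other group. In cells with at least 1000 genes, the difference from Eng_BM-HSC was 7.62 for S100a8, 4.76 for Cd52, 2.69 for Cxcr4 and 2.43 for Lck.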

How the data were processed

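The data were 1 table of 316 single cells, with 21970 mouse gene rows, 92 ERCC spike-in rows and 11 cassette rows. The authors deposited natural log values, read here as ln(TPM + 1): undoing the log gave totals of 414503 to 962583 per cell, as TPM would where a table leaves rows out. The base is not stated in the labels. The submitters' processing notes list HISAT 0.1.6, Salmon 0.3.2 and the build GRCm38 with no roles, and the sources used here do not give the isolation or the kit. Group means were taken of log2(TPM + 1), a pseudocount of 1, with Python 3.11.15, pandas 2.3.3 and SciPy 1.17.1. Found means at least 1 TPM. Cells of a group with a Pearson r above 0.9 were averaged. Intervals of shares are 95% Clopper-Pearson, and 0 cells allow 3 of the total. Groups were compared over genes whose mean reached 1 TPM in at least 1 of them.

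The 25 gene lists held 296 genes, of which 291 were measured. Named genes were the 5 markers, list members, the 5 genes most like each marker by Jaccard index, and the 10 genes that stood furthest above every other group. Genes named outside that rule were chosen after their values were seen. The members and lists were chosen with earlier results of these data known. Doublets were not called, and cells were not clustered. In simulated data, 2 random parts of Eng_BM-HSC over 21970 genes, 138 of 200 genes raised 8-fold and 5 of 619 unchanged ones passed a difference of 1 between those parts. Promoter sequences came from RefSeq. Results that need certain genes are not reported here.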

Additional observations from a re-analysis of the deposited data

Results flagged for a closer look

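Reporter and selection cassette rows belong to no comparison above, and 4 of them were found in a larger share of Eng_ES-HSC cells than in the ESC cells, where they were found in none. The eGFP row was found in 4.26% of Eng_ES-HSC cells (cell 8 at 2754 TPM and cell 20 at 472 TPM), 0 of 95 Eng_BM-HSC and 1 of 94 FL_HSC cells. The YFP row was found in 6.38%, in cells 8, 20 and 29 at 294, 130 and 4.79 TPM, and in 1 of 94 FL_HSC cells at 20.2 TPM. The 2 reporters are variants of 1 protein and share most of their sequence, so reads may be split between the rows. The ampicillin row was found in 4.26% (cells 1 and 7, at 3.70 and 3.73 TPM), and at higher levels in 1 Eng_BM-HSC cell (34.8 TPM) and 1 FL_HSC cell (49.1 TPM). The neomycin row was found in 2.13% (cell 11, at 4.08 TPM). The kanamycin row was in cells 25 and 33, at 31.04 and 486 TPM, and in 54 of 77 ESC cells, and the puromycin row was in no Eng_ES-HSC cell and in 41 ESC cells. What the cells were built to carry is not given in the sources used here.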

How the results depend on the processing

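The median of 973 genes per cell, the 5 marker shares, the pairs, the lineage lists and the group differences were computed again with other detection levels, cell filters and pseudocounts. Of the main values, 31 settings moved the value by less than its counting interval, the spread over cells or 1.5 times, and 14 moved it further. Of single markers, pairs and minor lists, 29 settings moved the value further than that, mostly at 100 TPM. The differences of the 5 markers from Eng_BM-HSC kept their direction under the 4 settings run on them. The share with at least 3 granulocyte genes, 74.5%, was 87.2% when 2 were asked for and 44.7% at 100 TPM. For T cell genes, 29.8% became 51.1% when 2 were asked for, 10.6% at 100 TPM and 14.9% with members rare in ESC. For HSC genes, 19.1% became 8.51% at 10 TPM, 4.26% at 100 TPM and 38.1% in cells with at least 1000 genes. The share with both granulocyte and T cell genes, 23.4%, was 4.26% at 100 TPM and 8.51% with members rare in ESC. The 48 genes higher than in every other group became 77 with a pseudocount of 0.1 and 28 with 10. They became 82 in cells with at least 1000 genes, of which 29 are among the 48, and 93 in cells with 500 to 3000 genes, of which 34 are. The cause was not tested. Settings at 100 TPM or with members rare in ESC were chosen after seeing the data. No paired analysis was possible because the numbers in the titles only name cells and no test was made. No replicate could be left out, since each group is 1 sample. Unknown depth limits every gene listed at 0.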

Other observations

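Cell 47 had 90.3% mitochondrial transcripts and 364 genes.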
